A study of Danio rerio with 6 samples.

Results

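The Hox genes encode homeodomain transcription factors, and their transcripts were measured in trunk cells of zebrafish embryos sorted by 3 fluorescent reporters. The members are all gene symbols made of hox, a cluster letter from a to d, a paralog number and a copy letter a or b. There were 49 of them among the 30677 symbols of the deposited tables, in 7 clusters named hoxaa, hoxab, hoxba, hoxbb, hoxca, hoxcb and hoxda. They span paralog groups 1 to 13, with 14 members in groups 1 to 4, 12 in groups 5 to 8 and 23 in groups 9 to 13. All embryos were wild type and 14 hours old (hours post fertilisation), and brain and tail had been cut away before the trunks were dissociated. GFP-positive cells came from 3 lines, each with 2 libraries: TgBAC(nkx2.2a:memGFP), TgBAC(olig2:GFP) and TgBAC(dbx1b:GFP), called nkx2.2a, olig2 and dbx1b cells here. In each line a bacterial artificial chromosome with the regulatory sequence of the named gene drives GFP, in the nkx2.2a line in a membrane-bound form. The reporter line, the form of GFP and the sort therefore coincide with the group and cannot be told apart. The labels call the cells of each sort neural progenitors and do not say whether libraries came from separate embryo pools, so that p-values measure the spread between these libraries only.

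Hox genes lie in clusters in which the order of the genes follows the order of their expression domains along the body axis. Genes of low paralog number are used in the hindbrain and anterior trunk, and genes of high number in the posterior trunk and tail, where they also begin to be expressed later. In the neural tube the combination of Hox proteins sets the identity of hindbrain segments and of motor neuron groups along the cord, whereas nkx2.2a, olig2 and dbx1b mark progenitor domains along the other, dorsoventral axis. The teleost genome duplication left many Hox genes in a and b copies. Retinoic acid, FGF and Wnt signals and the Cdx factors act upstream of the clusters, and Pbx and Meis proteins bind DNA together with Hox proteins.

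Counts were read counts per transcript, summed here per symbol. Libraries held 3.25 to 6.93 M (1000000) mapped fragments, of which 2276 to 17174 were Hox fragments. Levels are given as counts per 1000000 (CPM) scaled by the trimmed mean of M values (TMM), on which 1 fragment was worth 0.141 to 0.304 CPM. Each of the 49 genes had reads in at least 1 library, and 2 to 7 of them were at 0 in any one library. A count of 0 allows up to 3 fragments, which is 0.423 to 0.913 CPM depending on the library and covers counting error only. In each line the transcript of the gene driving GFP was highest in its own sort. For nkx2.2a it was 495 and 364 CPM in nkx2.2a cells, against 0.540 to 26.5 CPM in the other 4 libraries. The sorts were less far apart in olig2, whose fitted log2 fold change was -1.94 for nkx2.2a over olig2. All 3 reporter genes had reads in all 6 libraries. They summed to 526 and 484 CPM in the nkx2.2a libraries, 245 and 161 CPM in the olig2 libraries and 185 and 221 CPM in the dbx1b libraries. The 8 neural progenitor markers had reads in all 6 libraries, summing to 1562 and 1518 CPM in the nkx2.2a libraries, 1954 and 1525 CPM in the olig2 libraries and 1579 and 1193 CPM in the dbx1b libraries. 

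The summed Hox level was lowest in nkx2.2a cells. It was 1056 and 688 CPM in the nkx2.2a libraries, 2231 and 2005 CPM in the olig2 libraries and 2842 and 2421 CPM in the dbx1b libraries, so that neither nkx2.2a library overlapped any other. The means were 872 ± 260.1 CPM for nkx2.2a, 2118 ± 160.2 CPM for olig2 and 2631 ± 298 CPM for dbx1b (SD, n = 2 each). On the log2 scale the ratio of means was -1.28 for nkx2.2a over olig2, -1.59 over dbx1b, and -0.31 for olig2 over dbx1b. With 2 libraries against 2, an exact permutation test of such a sum cannot give a two-sided p below 0.333, and none was made. In bulk samples like these, fewer cells that express a gene and less RNA per cell cannot be told apart.

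**Figure D1:**
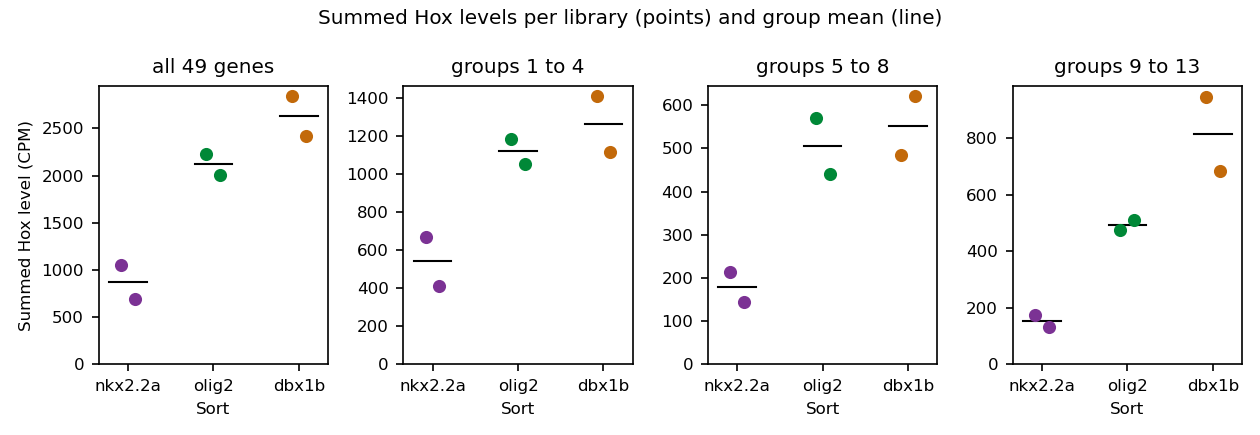
Summed Hox levels in CPM (vertical axes, from 0) in the 2 libraries of each sort (points) with the group mean (line), for all 49 genes and for paralog groups 1 to 4, 5 to 8 and 9 to 13. The nkx2.2a libraries are the lowest in every panel, and olig2 and dbx1b libraries overlap in groups 1 to 4 and 5 to 8 but not in groups 9 to 13.

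No single Hox gene passed the test across all genes in any of the comparisons. Of the 49 genes, 44 had enough reads to be tested beside all other symbols, 19129 in total; hoxc12a, hoxc12b, hoxa13a, hoxb13a and hoxc13b were too low. With edgeR's quasi-likelihood test and Benjamini-Hochberg adjusted p under 0.05, 0 of the 44 were called in nkx2.2a over olig2 (0% of all tested symbols were called), 0 in nkx2.2a over dbx1b (0.00523%, the single call being nkx2.2a) and 0 in olig2 over dbx1b (0%). DESeq2 on the same symbols called 9, 10 and 1 Hox genes in these comparisons, among 567, 379 and 695 symbols in all. It gave an adjusted p to 16533, 15791 and 16533 of the symbols, and to 42, 41 and 42 Hox genes, and its shares are over those. For nkx2.2a over olig2 the called Hox genes were 8 lower ones, hoxb1b, hoxc3a, hoxc6b, hoxb7a, hoxa9a, hoxb9a, hoxa10b and hoxd12a, beside 0.883% of those symbols called lower, and 1 higher gene, hoxa2b, beside 2.55%. For nkx2.2a over dbx1b they were hoxb1b, hoxc3a, hoxc6b, hoxc8a, hoxa9a, hoxb9a, hoxa10b, hoxb10a, hoxd10a and hoxd12a, all 10 lower, beside 0.887% of those symbols, with 0 higher, beside 1.51%. In olig2 over dbx1b it was hoxa2b, lower, beside 2.35%, with 0 higher, beside 1.86%. Folds of single genes below are edgeR estimates with their standard errors.

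In nkx2.2a over olig2, 36 of the 44 tested Hox genes had a negative log2 fold change (81.8%, beside 48.3% of all tested symbols), and their median was -1.34, beside 0.046 for all tested symbols. Unadjusted p was under 0.05 for 9 lower Hox genes (20.5%, beside 2.62% of all symbols) and for 1 higher gene, hoxa2b (2.27%, beside 6.12%). Both nkx2.2a libraries lay below both olig2 libraries in 24 Hox genes (54.5%, beside 15.7%) and above them in 3 (6.82%, beside 20.0%). Leaving out library 1 of nkx2.2a gave a median of -1.99 over 47 tested Hox genes, and leaving out its library 2 gave -1.06 over 46. The count of 9 was higher in the first of these fits and lower in the second. Shares over all symbols were not computed for them.

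In nkx2.2a over dbx1b, 41 of the 44 were negative (93.2%, beside 50.2% of all symbols), with a median of -1.66, beside -0.0035 for all symbols. Unadjusted p was under 0.05 for 20 lower Hox genes (45.5%, beside 2.67%) and 0 higher ones (beside 3.61%). Both nkx2.2a libraries lay below both dbx1b libraries in 34 Hox genes (77.3%, beside 21.0%) and above them in 0 (beside 19.1%). The median became -2.51 when library 1 of nkx2.2a was left out, and -1.34 when its library 2 was. The count of 20 was lower without nkx2.2a library 2 and without either dbx1b library, in fits with 46 or 47 tested Hox genes. Shares over all symbols were not computed for those fits.

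In olig2 over dbx1b the difference was smaller. Of the 44, 34 were negative (77.3%, beside 51.8%), with a median of -0.54, beside -0.053 for all symbols. Unadjusted p was under 0.05 for 3 lower Hox genes, hoxa2b, hoxc10a and hoxa11b (6.82%, beside 5.83%), and 0 higher ones (beside 3.70%). Both olig2 libraries lay below both dbx1b libraries in 14 Hox genes (31.8%, beside 25.4%) and above them in 1, hoxb8b (2.27%, beside 18.3%). The count of 3 was lower without either dbx1b library and without olig2 library 2. It was higher without olig2 library 1 or nkx2.2a library 2. These fits had 46 or 47 tested Hox genes, and shares over all symbols were not computed for them. The comparisons share libraries, so their values are given side by side and not as repeats of each other.

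**Figure D2:**
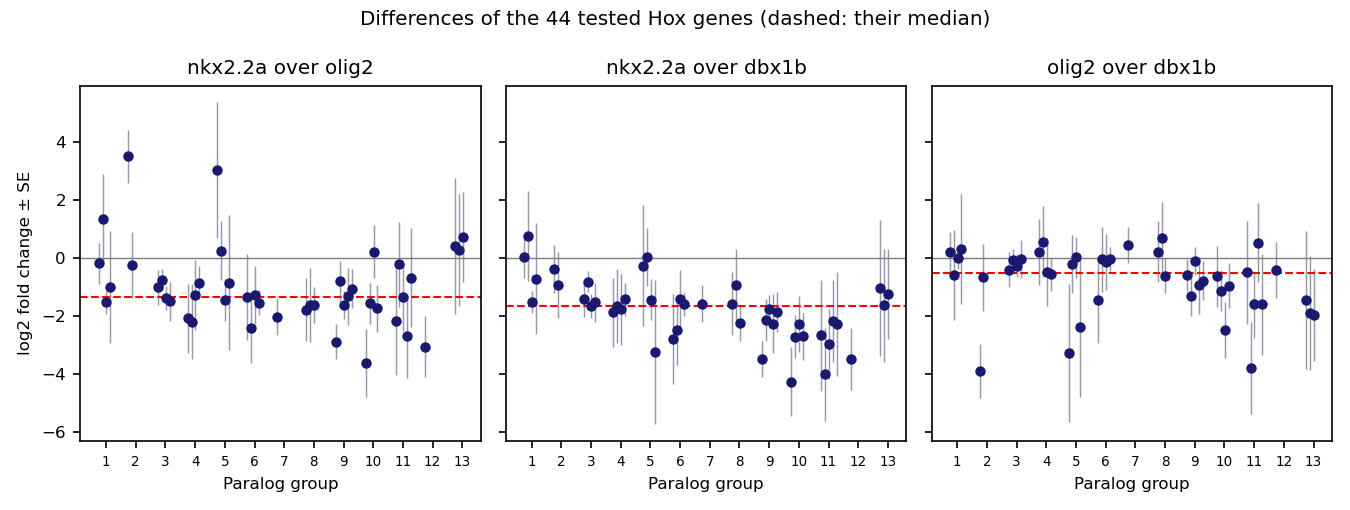
Log2 fold change (edgeR, ± SE) of each of the 44 tested Hox genes against its paralog group, in 3 panels, nkx2.2a over olig2, then over dbx1b, and olig2 over dbx1b, with the median as a dashed line (-1.34, -1.66 and -0.54). hoxa2b in paralog group 2 stands at 3.50 in the first panel and at -3.90 in the third, and all tested genes of groups 9 to 13 lie below 0 in the second.

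Markers of other cells also differed between the sorts. The 10 markers of presomitic mesoderm and tailbud, tissues rich in posterior Hox transcripts, had their highest sum in dbx1b cells, at 116 and 347 CPM in the nkx2.2a libraries, 165 and 149.8 CPM in the olig2 libraries and 1419 and 1416 CPM in the dbx1b libraries. For nkx2.2a over dbx1b, 8 of the 9 tested markers had a negative log2 fold change (88.9%, beside 50.2% of all tested symbols). Both nkx2.2a libraries lay below both dbx1b libraries in 7 (77.8%, beside 21.0%) and above them in 1 (11.1%, beside 19.1%). For nkx2.2a over olig2, 1 of the 9 was negative (11.1%, beside 48.3%), and for olig2 over dbx1b all 9 were (beside 51.8%). The medians of the 9 were 0.72 for nkx2.2a over olig2, -2.86 for nkx2.2a over dbx1b and -3.64 for olig2 over dbx1b. The Hox genes had -1.34, -1.66 and -0.54 there. Of these 10, mespaa, mespba and ripply2 were at 0 in at least 1 library, whereas msgn1 was 18.3 and 12.1 CPM in the nkx2.2a libraries, 11.3 and 11.6 CPM in the olig2 libraries and 271 and 152 CPM in the dbx1b libraries. Of 11 markers of forebrain and midbrain, a region without Hox expression, 8 were in the files. Their sum was highest in nkx2.2a cells, at 185 and 201 CPM in the nkx2.2a libraries, 135 and 60.9 CPM in the olig2 libraries and 26.5 and 70.5 CPM in the dbx1b libraries, and six3a and foxg1a were at 0 in olig2 library 2. By log2 fold change, 2 of the 8 were lower in nkx2.2a than in olig2 cells (25%, beside 48.3% of all tested symbols). Against dbx1b cells, 1 of the 8 was lower in nkx2.2a cells (12.5%, beside 50.2%).

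The sum of the 9 epidermis markers was highest in nkx2.2a cells too, at 1834 and 2014 CPM in the nkx2.2a libraries, 1149 and 941 CPM in the olig2 libraries and 845 and 624 CPM in the dbx1b libraries, with cldne at 0 in olig2 library 2. By log2 fold change, 1 of the 9 was lower in nkx2.2a than in olig2 cells, and 0 were lower than in dbx1b cells. The sum of the 5 notochord markers, none of them at 0, was also highest in nkx2.2a cells. It was 715 and 1048 CPM in the nkx2.2a libraries, 168 and 215 CPM in the olig2 libraries and 309 and 249 CPM in the dbx1b libraries. By log2 fold change, 1 of the 5 was lower in nkx2.2a than in olig2 cells, and 1 was lower than in dbx1b cells (20% each, beside 48.3% and 50.2% of all tested symbols). The 6 somite and muscle markers, 4 of them at 0 in at least 1 library, summed to 79.6 and 39.6 CPM in the nkx2.2a libraries, 38.6 and 28 CPM in the olig2 libraries and 102 and 51.2 CPM in the dbx1b libraries. The 5 neural crest markers, none at 0, summed to 132 and 169 CPM in the nkx2.2a libraries, 183 and 169 CPM in the olig2 libraries and 131 and 113 CPM in the dbx1b libraries. The 10 markers of pronephros, blood and lateral mesoderm, 3 of them at 0 in at least 1 library, summed to 51.5 and 56.6 CPM in the nkx2.2a libraries, 51.4 and 160.2 CPM in the olig2 libraries and 75.6 and 116 CPM in the dbx1b libraries. The part of these cells in the Hox differences was not tested.

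Of the anterior genes, hoxb1b had the most transcripts for its length. It is an early target of retinoic acid that patterns the hindbrain, and its mean over the 6 libraries was 84.8 CPM per kilobase of transcript, the highest of the 49. Its level was 151 and 86.5 CPM in the nkx2.2a libraries, 359 and 329 CPM in the olig2 libraries and 379 and 308 CPM in the dbx1b libraries. The nkx2.2a libraries lay apart from the other 4, which overlapped one another. The log2 fold change was -1.53 ± 0.39 for nkx2.2a over olig2 (edgeR adjusted p = 0.518), -1.53 ± 0.39 for nkx2.2a over dbx1b (adjusted p = 0.526) and 0.0022 ± 0.38 for olig2 over dbx1b.

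The other genes of group 1 did not share this order. hoxa1a was 61.1 and 28.1 CPM in the nkx2.2a libraries, 27.7 and 74.7 CPM in the olig2 libraries and 39.1 and 49.6 CPM in the dbx1b libraries, with overlapping libraries in all comparisons. hoxb1a, the copy known for giving one hindbrain segment its identity, was low, at 7.58 and 3.93 CPM in the nkx2.2a libraries, 1.22 and 3.32 CPM in the olig2 libraries and 5.04 and 1.83 CPM in the dbx1b libraries, with both nkx2.2a libraries above both olig2 libraries. hoxc1a stayed at 4.50 CPM or less in every library.

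In paralog group 2 the olig2 cells stood lowest, with sums of 65.5 and 36.3 CPM in the nkx2.2a libraries, 27.4 and 11.6 CPM in the olig2 libraries and 74.7 and 75.8 CPM in the dbx1b libraries. Its gene hoxa2b, which gives the second pharyngeal arch and anterior hindbrain segments their identity, was 40.7 and 34.2 CPM in the nkx2.2a libraries, 5.48 and 1.19 CPM in the olig2 libraries and 43.9 and 54.8 CPM in the dbx1b libraries. It was lowest in both olig2 libraries, whereas the nkx2.2a libraries stood slightly below the dbx1b libraries without overlap. The log2 fold change was 3.50 ± 0.92 for nkx2.2a over olig2 (edgeR adjusted p = 0.518) and -3.90 ± 0.93 for olig2 over dbx1b (adjusted p = 0.367). DESeq2 gave adjusted p = 0.00275 and 0.000489 in these comparisons. Without olig2 library 1 the folds were 4.96 and -5.38, and without olig2 library 2, which held 5 fragments of it, 2.78 and -3.20. For nkx2.2a over dbx1b the fold was -0.40 ± 0.82. hoxb2a, the other gene of the group, was 24.8 and 2.12 CPM in the nkx2.2a libraries, 21.9 and 10.4 CPM in the olig2 libraries and 30.8 and 21 CPM in the dbx1b libraries, with overlapping libraries in all comparisons.

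Group 3 had the highest summed CPM of any paralog group, 289 and 221 CPM in the nkx2.2a libraries, 572 and 483 CPM in the olig2 libraries and 646 and 549 CPM in the dbx1b libraries. Per kilobase, group 9 stood above it in the dbx1b libraries, at 279.6 and 224 CPM against 260.1 and 219 CPM for group 3, and group 3 was above group 9 in the other 4. The genes of group 3 pattern the posterior hindbrain and anterior trunk. hoxb3a, second of the 49 per length at 61.6 CPM per kilobase, was 149 and 119 CPM in the nkx2.2a libraries, 249 and 203 CPM in the olig2 libraries and 242 and 233 CPM in the dbx1b libraries, with a log2 fold change of -0.76 ± 0.36 for nkx2.2a over olig2 and -0.83 ± 0.36 for nkx2.2a over dbx1b. hoxc3a, next at 55.5 CPM per kilobase, was 49.4 and 64.7 CPM in the nkx2.2a libraries, 136 and 162 CPM in the olig2 libraries and 204 and 156 CPM in the dbx1b libraries, with -1.39 ± 0.42 and -1.66 ± 0.42 in the same comparisons (edgeR adjusted p = 0.535 and 0.525). Over all tested symbols, both nkx2.2a libraries lay below both olig2 libraries in 15.7% and below both dbx1b libraries in 21.0%. In all 4 genes of the group, hoxa3a, hoxb3a, hoxc3a and hoxd3a, both nkx2.2a libraries lay below the other 4. In RefSeq annotation of the newer assembly GRCz12tu, spans of these 4 genes and of hoxb1b overlap those of neighbouring Hox genes 13 times. Reads of hoxb1b, hoxa3a, hoxb3a, hoxc3a, hoxd3a and their overlapped neighbours are therefore uncertain as those of single genes.

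In group 4, hoxd4a, a gene of the hindbrain to cord transition, was 41.5 and 33.3 CPM in the nkx2.2a libraries, 88.2 and 47.6 CPM in the olig2 libraries and 136 and 66.5 CPM in the dbx1b libraries. Its nkx2.2a libraries were below the rest, and its olig2 and dbx1b libraries overlapped. hoxa4a was 32.1 and 0.907 CPM in the nkx2.2a libraries, 76.4 and 64.2 CPM in the olig2 libraries and 88.2 and 34.5 CPM in the dbx1b libraries, where the low value of nkx2.2a library 2 rests on 3 fragments. Its log2 fold change for nkx2.2a over olig2 was -2.08 ± 1.19 with both nkx2.2a libraries, -1.12 without nkx2.2a library 2 and -6.26 without library 1. hoxb4a was 6.47 and 1.51 CPM in the nkx2.2a libraries, 25.3 and 12.1 CPM in the olig2 libraries and 21.1 and 4.37 CPM in the dbx1b libraries, with -2.21 ± 1.29 for nkx2.2a over olig2, -1.51 without nkx2.2a library 2, -3.61 without nkx2.2a library 1 and -1.58 without olig2 library 1.

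**Figure D3:**
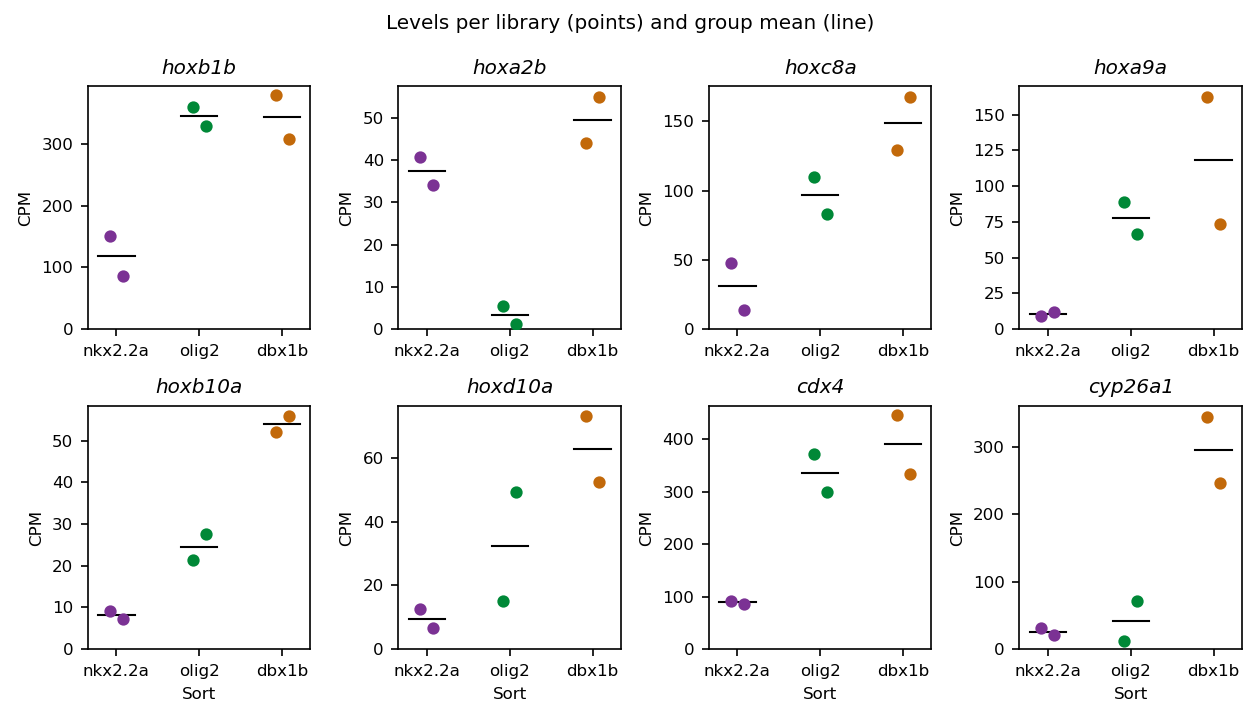
Levels in CPM (vertical axes, from 0) of 6 Hox genes and of cdx4 and cyp26a1 in the 2 libraries of each sort (points) with the group mean (line). hoxb1b, hoxc8a, hoxa9a, hoxb10a, hoxd10a and cdx4 have their lowest 2 libraries in nkx2.2a cells, hoxa2b in olig2 cells, and cyp26a1 its highest 2 in dbx1b cells.

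The trunk genes of groups 5 to 8 summed to 213 and 143 CPM in the nkx2.2a libraries, 571 and 440.2 CPM in the olig2 libraries and 484 and 621 CPM in the dbx1b libraries. Of the 12, 12 were tested, and their median log2 fold change was -1.50 for nkx2.2a over olig2, -1.58 for nkx2.2a over dbx1b and -0.11 for olig2 over dbx1b. While nkx2.2a cells had a similar median against both other sorts, olig2 and dbx1b libraries overlapped in the sum.

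hoxb5b, which in zebrafish restricts the heart field downstream of retinoic acid, was 15 and 12.1 CPM in the nkx2.2a libraries, 44.1 and 30.3 CPM in the olig2 libraries and 38 and 35.9 CPM in the dbx1b libraries. hoxc6b, whose mouse counterpart marks forelimb-level motor neurons, was 46.4 and 61.4 CPM in the nkx2.2a libraries, 155 and 159.8 CPM in the olig2 libraries and 140.1 and 183 CPM in the dbx1b libraries. Its log2 fold change was -1.55 ± 0.42 for nkx2.2a over olig2 (edgeR adjusted p = 0.521), -1.58 ± 0.42 for nkx2.2a over dbx1b (adjusted p = 0.554) and -0.037 ± 0.41 for olig2 over dbx1b. In both genes the nkx2.2a libraries lay below the other 4, which overlapped.

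The a copy hoxc6a was more variable, at 34.4 and 4.23 CPM in the nkx2.2a libraries, 70 and 24.2 CPM in the olig2 libraries and 32.8 and 71.9 CPM in the dbx1b libraries, with overlap in every comparison. hoxb7a, the sole member in group 7, was 28.7 and 16 CPM in the nkx2.2a libraries, 131 and 51.9 CPM in the olig2 libraries and 56.9 and 77.2 CPM in the dbx1b libraries, which gave -2.03 ± 0.65 for nkx2.2a over olig2, and -1.21 without olig2 library 1. hoxb6b, at 2.53 and 2.42 CPM in the nkx2.2a libraries, 8.82 and 18 CPM in the olig2 libraries and 20 and 8.03 CPM in the dbx1b libraries, gave -2.43 ± 1.20 in that comparison, and -1.82 without olig2 library 2.

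In group 8, hoxc8a, which in the mouse acts in brachial and thoracic cord, was 48.2 and 13.9 CPM in the nkx2.2a libraries, 110.2 and 83 CPM in the olig2 libraries and 129 and 168 CPM in the dbx1b libraries. Here the 3 sorts did not overlap, and nkx2.2a library 2 was the lowest. Its log2 fold change was -1.63 ± 0.62 for nkx2.2a over olig2, -2.25 ± 0.63 for nkx2.2a over dbx1b (edgeR adjusted p = 0.578) and -0.62 ± 0.60 for olig2 over dbx1b. Without nkx2.2a library 1 the first 2 were -2.79 and -3.41, and without nkx2.2a library 2 they were -0.99 and -1.63. hoxb8b was the one tested Hox gene with both olig2 libraries above both dbx1b libraries, at 4.58 and 2.42 CPM in the nkx2.2a libraries, 10.7 and 10.9 CPM in the olig2 libraries and 8.1 and 5.36 CPM in the dbx1b libraries. The genes hoxa5a, hoxc5a and hoxb6a were low. hoxb6a was 1.89 and 1.81 CPM in the nkx2.2a libraries, 0.913 and 8.53 CPM in the olig2 libraries and 18.5 and 7.33 CPM in the dbx1b libraries. hoxc5a was at 1.26 and 0 CPM in nkx2.2a cells against 11.2 and 1.55 CPM in dbx1b cells, and hoxa5a did not exceed 2.21 CPM in any library.

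The posterior genes of groups 9 to 13 had wider ratios of sums between the sorts than groups 1 to 4 and 5 to 8, but the medians of single genes did not all follow. Their sum was 174 and 132 CPM in the nkx2.2a libraries, 474 and 509.9 CPM in the olig2 libraries and 944 and 683 CPM in the dbx1b libraries, with no overlap between any of the sorts. The ratio of means was -1.69 on the log2 scale for nkx2.2a over olig2, -2.41 for nkx2.2a over dbx1b and -0.73 for olig2 over dbx1b. For groups 1 to 4 these ratios were -1.05, -1.22 and -0.18, and for groups 5 to 8 they were -1.50, -1.63 and -0.13. Of the 23 posterior genes, 18 were tested. In nkx2.2a over olig2, 14 of the 18 were negative (77.8%, beside 85.7% in groups 1 to 4 and 83.3% in groups 5 to 8). Over all tested symbols 48.3% were negative. Of the 18, 9 had both nkx2.2a libraries lower without overlap (50%, beside 57.1% and 58.3%, and 15.7% of all tested symbols). The median of the 18 there was -1.35, beside -1.02 in groups 1 to 4 and -1.50 in groups 5 to 8. In nkx2.2a over dbx1b all 18 of those tested were negative, beside 50.2% of all tested symbols. The median was -2.28, beside -1.44 for the 14 genes of groups 1 to 4 and -1.58 for the 12 of groups 5 to 8. In olig2 over dbx1b, 17 of the 18 were negative, the exception being hoxc11b, beside 51.8% of all tested symbols. The median there was -1.05, beside -0.17 in groups 1 to 4 and -0.11 in groups 5 to 8. The tailbud markers, at 1416 to 1419 CPM in dbx1b libraries against 116 to 347 CPM in nkx2.2a and 149.8 to 165 CPM in olig2 libraries, were highest in the same dbx1b cells, and their part in these ratios was not tested.

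hoxa9a had the smallest p of any Hox gene in nkx2.2a over olig2 and in nkx2.2a over dbx1b. Genes of group 9 mark the thoracic cord in the mouse. Its level was 9 and 12.1 CPM in the nkx2.2a libraries, 89.2 and 66.8 CPM in the olig2 libraries and 162 and 73.9 CPM in the dbx1b libraries, with nkx2.2a libraries far below the rest and olig2 and dbx1b libraries overlapping. The log2 fold change was -2.89 ± 0.60 for nkx2.2a over olig2 (edgeR adjusted p = 0.421) and -3.49 ± 0.61 for nkx2.2a over dbx1b (adjusted p = 0.259). The fold in the second comparison was -2.82 without dbx1b library 1. Without olig2 library 2 the adjusted p there was 0.0431, and over all libraries left out in turn it ran up to 1. For olig2 over dbx1b the value of -0.60 ± 0.55 was 0.059 without dbx1b library 1.

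The b copy hoxa9b was 9 and 27.2 CPM in the nkx2.2a libraries, 28.3 and 35.3 CPM in the olig2 libraries and 89.5 and 69.5 CPM in the dbx1b libraries. Both nkx2.2a and olig2 libraries lay below the dbx1b libraries, while nkx2.2a library 2 and olig2 library 1 were nearly level, and per kilobase they overlapped, at 15.9 and 15.2 CPM. hoxb9a, the most abundant gene of the group per length at 46 CPM per kilobase, was 53.5 and 27.5 CPM in the nkx2.2a libraries, 137 and 116 CPM in the olig2 libraries and 145 and 129.8 CPM in the dbx1b libraries, with -1.64 ± 0.49 for nkx2.2a over olig2 and -1.76 ± 0.49 for nkx2.2a over dbx1b. hoxc9a was 16.1 and 2.42 CPM in the nkx2.2a libraries, 33.5 and 13.5 CPM in the olig2 libraries and 50.2 and 40.3 CPM in the dbx1b libraries. hoxd9a was 15.2 and 22.1 CPM in the nkx2.2a libraries, 52.3 and 25.6 CPM in the olig2 libraries and 46.5 and 88.7 CPM in the dbx1b libraries. In all 5 genes of group 9 both nkx2.2a libraries lay below both dbx1b libraries, beside 21.0% of all tested symbols.

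Genes of group 10, which in the mouse suppress ribs and mark the lumbar cord, had dbx1b levels above those of nkx2.2a cells without overlap in all 4 cases. Of all tested symbols, 21.0% had that order. hoxb10a was 9.16 and 7.26 CPM in the nkx2.2a libraries, 21.3 and 27.7 CPM in the olig2 libraries and 52 and 56 CPM in the dbx1b libraries, a stepwise order with no overlap, and its log2 fold change was -2.71 ± 0.74 for nkx2.2a over dbx1b (edgeR adjusted p = 0.568). hoxd10a was 12.5 and 6.65 CPM in the nkx2.2a libraries, 15.2 and 49.3 CPM in the olig2 libraries and 73.1 and 52.6 CPM in the dbx1b libraries, with -2.71 ± 0.82 in that comparison. The widest fold belonged to hoxa10b, at 5.53 and 0.302 CPM in the nkx2.2a libraries, 27.4 and 46.7 CPM in the olig2 libraries and 80.5 and 35.2 CPM in the dbx1b libraries. It was -3.63 ± 1.17 for nkx2.2a over olig2 and -4.27 ± 1.20 for nkx2.2a over dbx1b, and without nkx2.2a library 2, which held 1 fragment of it, -2.73 and -3.39. Without nkx2.2a library 1 these were -6.88 and -7.50, and without dbx1b library 1 the second was -3.57. hoxc10a had another order, at 8.69 and 5.75 CPM in the nkx2.2a libraries, 8.22 and 4.27 CPM in the olig2 libraries and 42.1 and 28 CPM in the dbx1b libraries. There the nkx2.2a and olig2 libraries overlapped and both lay below dbx1b, with -2.28 ± 0.96 for nkx2.2a over dbx1b and -2.49 ± 0.97 for olig2 over dbx1b (edgeR adjusted p = 0.786 and 0.5).

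In group 11, whose mouse genes act at sacral levels and in the kidney, hoxa11b had a similar order to hoxc10a. It was 0.79 and 0.907 CPM in the nkx2.2a libraries, 1.52 and 0.474 CPM in the olig2 libraries and 20.2 and 7.61 CPM in the dbx1b libraries, the first 4 values resting on 2 to 5 fragments each, with -4.02 ± 1.60 for nkx2.2a over dbx1b and -3.79 ± 1.59 for olig2 over dbx1b. Without dbx1b library 1 these were -3.16 and -2.94, and without olig2 library 1 the second was -4.85. hoxc11a was 2.37 and 3.33 CPM in the nkx2.2a libraries, 9.74 and 4.98 CPM in the olig2 libraries and 33.5 and 11.1 CPM in the dbx1b libraries. hoxd11a was 10.3 and 0 CPM in the nkx2.2a libraries, 14.6 and 2.13 CPM in the olig2 libraries and 22.7 and 28 CPM in the dbx1b libraries, and its value for nkx2.2a library 2 was below the floor of 0.907 CPM. hoxc11b, whose RefSeq transcripts in these data are all predicted ones, differed widely between the olig2 libraries, at 0.947 and 7.86 CPM in the nkx2.2a libraries, 4.26 and 52.9 CPM in the olig2 libraries and 29.4 and 10.4 CPM in the dbx1b libraries.

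Groups 12 and 13 were mostly near 0; genes of group 13 end the growth of the body axis and pattern fins and limbs. hoxd12a was the exception, at 6.47 and 1.21 CPM in the nkx2.2a libraries, 22.2 and 42.9 CPM in the olig2 libraries and 64.7 and 22.8 CPM in the dbx1b libraries, with -3.06 ± 1.04 for nkx2.2a over olig2 and -3.49 ± 1.06 for nkx2.2a over dbx1b. Without nkx2.2a library 2, which held 4 fragments of it, these were -2.32 and -2.76, without nkx2.2a library 1 they were -4.74 and -5.14, and without dbx1b library 1 the second was -2.56. hoxd13a was 2.53 and 3.33 CPM in the nkx2.2a libraries, 2.13 and 1.42 CPM in the olig2 libraries and 11.3 and 2.68 CPM in the dbx1b libraries. Of the others, hoxa13b did not exceed 10.3 CPM in any library and hoxc13a did not exceed 1.55 CPM. The 5 genes that were not tested stayed at 2.42 CPM or less. Group 13 as a sum was 9.95 and 3.63 CPM in the nkx2.2a libraries, 7.91 and 4.27 CPM in the olig2 libraries and 18.2 and 16.2 CPM in the dbx1b libraries, the only paralog group apart from group 2 whose nkx2.2a libraries were not both below the olig2 libraries.

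**Figure D4:**
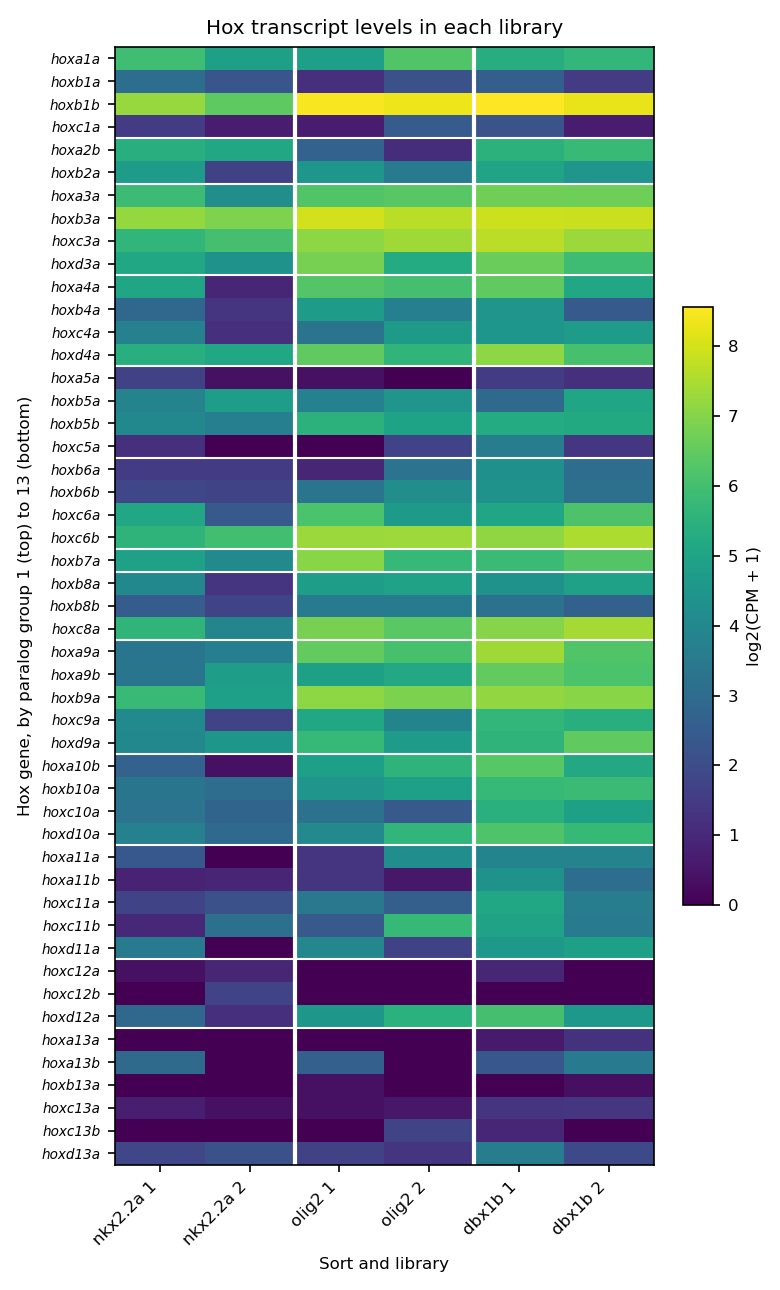
Level of each of the 49 Hox genes (rows, by paralog group from 1 at the top to 13) in each of the 6 libraries (columns), as log2 of CPM plus 1 (colour, dark is low). Most rows of groups 9 to 12 are darker in the nkx2.2a columns than in the dbx1b columns, row hoxa2b is darkest in the olig2 columns, and hoxb1b is the brightest row.

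Shares of the Hox reads within a library need no scaling between libraries. By paralog group they carry the uncertainty from overlapping spans given with group 3. Groups 9 to 13 held 16.5% and 19.1% in nkx2.2a cells, 21.3% and 25.4% in olig2 cells and 33.2% and 28.2% in dbx1b cells. The means were 17.8% ± 1.87 in nkx2.2a cells, 23.3% ± 2.95 in olig2 cells and 30.7% ± 3.53 in dbx1b cells (SD, n = 2 each), without overlap between sorts. With counts divided by transcript length the shares were 19.1% and 24.4% in nkx2.2a cells, 22.9% and 29.1% in olig2 cells and 38.2% and 32.7% in dbx1b cells, so that nkx2.2a and olig2 libraries overlapped and the dbx1b libraries remained above both. Without division by length, the differences between means were -5.56 percentage points for nkx2.2a minus olig2, -12.9 for nkx2.2a minus dbx1b and -7.38 for olig2 minus dbx1b. The shares of groups 1 to 4 had the opposite order, with 63.3% and 60.1% in nkx2.2a cells, 53.2% and 52.6% in olig2 cells and 49.8% and 46.1% in dbx1b cells. Groups 5 to 8 held 20.2% and 20.8% in nkx2.2a cells, 25.6% and 22% in olig2 cells and 17% and 25.7% in dbx1b cells, with overlap between dbx1b and each of the others, and by length also between nkx2.2a and olig2. Since shares add up to the whole, a low share of posterior genes also raises the share of the rest.

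Among single paralog groups, group 9 took 9.73% and 13.3% in nkx2.2a cells, 15.3% and 12.8% in olig2 cells and 17.4% and 16.6% in dbx1b cells. Group 10 took 3.39% and 2.9% in nkx2.2a cells, 3.23% and 6.38% in olig2 cells and 8.72% and 7.1% in dbx1b cells. In both, the dbx1b libraries had the highest shares. Group 2 took 6.21% and 5.27% in nkx2.2a cells, 1.23% and 0.579% in olig2 cells and 2.63% and 3.13% in dbx1b cells, with the highest shares in nkx2.2a cells. Group 3 took the largest share of reads in all 6 libraries, at 22.7% to 32.2%. With counts divided by length, group 9 exceeded it in the dbx1b libraries, at 19.8% and 19.2% against 18.4% and 18.9%.

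**Figure D5:**
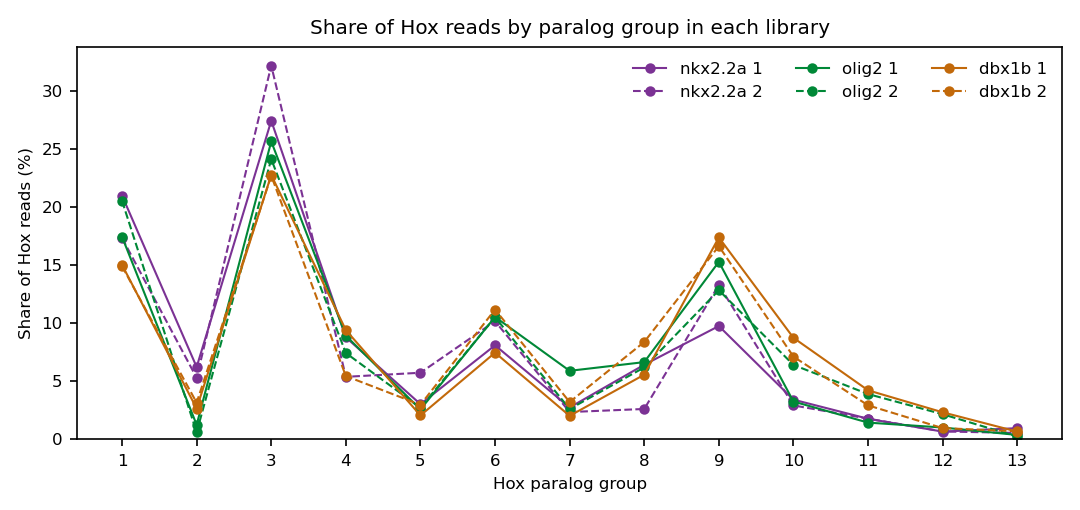
Share of the Hox reads of each library (percent, vertical axis) in each paralog group from 1 to 13 (horizontal axis), one line per library with library 2 dashed. Group 3 is the highest point of every line, dbx1b lines are the highest at groups 9 and 10, and nkx2.2a lines are the highest at group 2.

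By cluster, 6 of the 7 had nkx2.2a sums at well under the olig2 sums. The largest of them, hoxba, summed to 309 and 208 CPM in the nkx2.2a libraries, 628 and 484 CPM in the olig2 libraries and 598 and 593 CPM in the dbx1b libraries. hoxca summed to 176 and 97.4 CPM in the nkx2.2a libraries, 377 and 324 CPM in the olig2 libraries and 530.2 and 505 CPM in the dbx1b libraries. hoxab was the exception, at 62.8 and 62.6 CPM in the nkx2.2a libraries, 67.9 and 83.7 CPM in the olig2 libraries and 238 and 177 CPM in the dbx1b libraries, and it holds hoxa2b. For nkx2.2a over olig2 the log2 ratio of sums was -0.27 in hoxab and -1.11 to -1.65 in the other 6 clusters. For olig2 over dbx1b it was -1.46 in hoxab, -0.58 in hoxda and -0.56 in hoxca, all without overlap between libraries. In hoxaa, hoxba, hoxbb and hoxcb it lay between -0.26 and 0.042, with overlap. hoxbb, with members in paralog groups 1 to 8 only, reached 138 ± 49.1 CPM for nkx2.2a, 405 ± 24.5 CPM for olig2 and 401 ± 61.6 CPM for dbx1b (SD, n = 2 each).

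Members did not all share one order of the sorts. By group means, dbx1b cells had the highest level in 33 of the 49 genes, olig2 cells in 12 and nkx2.2a cells in 4, including genes with few fragments. The lowest mean was in nkx2.2a cells in 38 genes, in olig2 cells in 10 and in dbx1b cells in 1. In 26 genes the means stood in the full order of nkx2.2a lowest, then olig2, then dbx1b. Shares over all symbols were not computed for the counts in this paragraph, so they describe the Hox genes only. Within sorts, library 2 was below library 1 in 34 of the 49 genes for nkx2.2a, 24 for olig2 and 32 for dbx1b. The second nkx2.2a library was the lowest of all 6 libraries in 25 genes. It was the shallower of the 2 nkx2.2a libraries, at 3.59 M against 5.83 M mapped fragments, but olig2 library 1 held fewer, 3.25 M.

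Where a Hox gene has both an a and a b copy in the files, 11 pairs could be compared per kilobase. hoxb1b exceeded hoxb1a in all 6 libraries, by 26.0-fold between the means over libraries, 84.8 and 3.26 CPM per kilobase. It was the only pair in which one copy was higher in every library. The copies of hoxc6 had means of 43.4 CPM per kilobase for hoxc6a and 38 for hoxc6b, each being higher in 3 of the 6 libraries. The copies of hoxa9 differed in opposite directions between sorts. In nkx2.2a cells hoxa9b was higher in both libraries, with means of 5.31 ± 1.1 CPM per kilobase for hoxa9a and 11 ± 6.94 for hoxa9b (SD, n = 2). In nkx2.2a library 1 each copy had 57 fragments, so hoxa9b was higher there only through the division by length. In nkx2.2a library 2 they had 40 and 90 fragments. In olig2 cells hoxa9a was higher in both, at 39.3 ± 7.95 and 16.9 ± 2.36, and in dbx1b cells each copy was higher in 1 library, at 59.5 ± 31.5 and 51.4 ± 12.6. The assignment of reads matching both copies is not stated, which leaves values of closely similar copies uncertain.

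The genes with the highest level per kilobase in their paralog group over all 6 libraries were hoxb1b, hoxa2b, hoxb3a, hoxd4a, hoxb5b, hoxc6a, hoxb7a, hoxc8a, hoxb9a, hoxd10a, hoxc11b, hoxd12a and hoxd13a, in the order of the groups. Their levels ran from 84.8 CPM per kilobase for hoxb1b to 2.77 for hoxd13a. The same gene led by the mean of every sort in groups 1, 6, 8, 9 and 12, and group 7 has hoxb7a alone. In group 12 the other genes, hoxc12a and hoxc12b, had only 10 and 8 fragments over all 6 libraries. In olig2 cells the leaders of the other groups included hoxb2a in group 2, at 7.85 CPM per kilobase beside 1.35 for hoxa2b, and hoxa4a in group 4, at 48.1 beside 46.5 for hoxd4a. hoxa10b led group 10 and hoxa13b group 13 in those cells. In nkx2.2a cells hoxb5a led group 5, and in dbx1b cells hoxc3a led group 3. In group 11 hoxd11a led in nkx2.2a cells, at 3.16 beside 2.94 for hoxc11b, and in dbx1b cells, at 15.6 beside 13, while hoxc11b stood at 33.8 CPM per kilobase in olig2 library 2. hoxb1b led all Hox genes in 5 of the 6 libraries and hoxb3a in nkx2.2a library 2.

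A list of 55 genes held those that act upstream of or together with Hox proteins, and 3 even-skipped homeobox genes. Of the 55, 53 were tested, and edgeR called 0 in each comparison at adjusted p under 0.05. In nkx2.2a over olig2, unadjusted p was under 0.05 for 4 lower and 9 higher ones (7.55% and 17%, beside 2.62% and 6.12% of all tested symbols), and DESeq2 called 2 lower and 4 higher. In nkx2.2a over dbx1b the counts were 12 lower and 4 higher (22.6% and 7.55%, beside 2.67% and 3.61%), and DESeq2 called 8 lower and 0 higher. In olig2 over dbx1b they were 14 lower and 1 higher (26.4% and 1.89%, beside 5.83% and 3.70%), and DESeq2 called 8 lower and 1 higher. The 14 lower ones included all 3 even-skipped genes, and the 12 lower ones in nkx2.2a over dbx1b included 1 of them. DESeq2 gave an adjusted p to 50, 50 and 50 of the listed genes, and the shares of all such symbols that it called stand with the Hox genes. The median log2 fold changes of the 53 were -0.12, -0.36 and -0.69 in these comparisons.

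cdx4, a caudal-type factor that activates posterior Hox genes, had the order of the Hox sum. It was 91.9 and 86.2 CPM in the nkx2.2a libraries, 372 and 300.1 CPM in the olig2 libraries and 446 and 335 CPM in the dbx1b libraries, with -1.91 ± 0.36 for nkx2.2a over olig2, -2.13 ± 0.36 for nkx2.2a over dbx1b and -0.22 ± 0.34 for olig2 over dbx1b (edgeR adjusted p = 0.376, 0.251 and 0.889). Its nkx2.2a libraries lay below the other 4. The related cdx1a was highest in dbx1b cells, at 16.6 and 12.7 CPM in the nkx2.2a libraries, 13.4 and 25.8 CPM in the olig2 libraries and 51.7 and 93.4 CPM in the dbx1b libraries. cdx1b was low in all, at 5.68 and 7.56 CPM in the nkx2.2a libraries, 11.6 and 5.93 CPM in the olig2 libraries and 4.86 and 3.52 CPM in the dbx1b libraries.

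The enzymes that make and break down retinoic acid, the signal that switches on anterior Hox genes, each had their own pattern. cyp26a1, which degrades it, was 30.6 and 21.2 CPM in the nkx2.2a libraries, 12.5 and 71.6 CPM in the olig2 libraries and 344 and 246 CPM in the dbx1b libraries, highest in dbx1b cells, with -3.51 ± 0.77 for nkx2.2a over dbx1b and -2.81 ± 0.74 for olig2 over dbx1b (edgeR adjusted p = 0.366 and 0.398). The second was -2.05 without olig2 library 1 and -4.59 without olig2 library 2. cyp26c1, another degrading enzyme, was 209.5 and 373 CPM in the nkx2.2a libraries, 57.5 and 46.7 CPM in the olig2 libraries and 238 and 427 CPM in the dbx1b libraries. It was lowest in olig2 cells, as hoxa2b was, with 2.48 ± 0.46 for nkx2.2a over olig2 and -2.67 ± 0.47 for olig2 over dbx1b. cyp26b1 was highest in nkx2.2a cells, at 65.4 and 84.1 CPM in the nkx2.2a libraries, 3.96 and 10.4 CPM in the olig2 libraries and 18.2 and 26.9 CPM in the dbx1b libraries. The synthesising enzyme aldh1a2 stood high in nkx2.2a library 2 alone, at 7.58 and 108 CPM in the nkx2.2a libraries, 3.35 and 9.24 CPM in the olig2 libraries and 7.56 and 8.03 CPM in the dbx1b libraries.

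The cofactors did not have the order of the Hox genes. pbx4, the main Pbx gene of the early zebrafish embryo, was 447 and 417 CPM in the nkx2.2a libraries, 774 and 396 CPM in the olig2 libraries and 417 and 502 CPM in the dbx1b libraries, with overlap throughout. meis3 was 87.5 and 106 CPM in the nkx2.2a libraries, 144 and 129 CPM in the olig2 libraries and 47 and 44 CPM in the dbx1b libraries, lowest in dbx1b cells. meis1b was 122 and 41.4 CPM in the nkx2.2a libraries, 141 and 116 CPM in the olig2 libraries and 88.4 and 78.8 CPM in the dbx1b libraries. The 10 tested Pbx and Meis genes had medians of -0.47 for nkx2.2a over olig2, 0.20 for nkx2.2a over dbx1b and 0.66 for olig2 over dbx1b.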

How the data were processed

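RNA sequencing gave 2 libraries for each of 3 sorts. Bowtie 1.1.1, FastQC 0.11.3 and the build GRCz10 appear in the submitters' processing notes, with no role. The deposited counts are whole reads per RefSeq transcript, not normalised by the authors; all counts of all 54437 transcripts were even, so both mates of a fragment were counted. The transcript length beside each count is the authors' deposited value. Reads without a transcript (66.6% to 80.6% per library) were left out. Handling of reads matching several transcripts, and strand, are not given in the sources used here. The authors' workbook sheets were not used. Counts were summed per symbol (30677). All 49 Hox symbols were found in the RefSeq table of GRCz12tu, used only for names and neighbours.

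edgeR 4.0.16 (R 4.3.3) was run with filterByExpr (minimum count 10), TMM, a quasi-likelihood fit with 1 mean per sort over all 6 libraries, and Benjamini-Hochberg adjustment over 19129 symbols at 0.05. The biological coefficient of variation was 0.883. CPM values have mean ± SD (n = 2), and CPM per kilobase divides each transcript's count by its length before summing. The steps were checked on simulated data with less spread than these libraries and wider folds than those of most Hox genes. That check cannot show whether differences of the size seen here would be called. Libraries of one sort differed by far more than sampling noise, so none was a duplicate. The members and gene lists were chosen with earlier results of these data known. Genes named by rule were the highest per kilobase in each paralog group, up to 8 tested Hox genes per comparison with the widest fold among those without overlap, 10 set regulators and the 3 reporter genes; others were named after their values were seen. Alternatives were DESeq2 1.42.0, RLE scaling, scaling by totals alone, no filter, a filter of 1 CPM, a replicate block, only the 4 libraries compared, transcripts as features, and leaving out each library. Halving the counts to fragments was chosen after seeing the data.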

Additional observations from a re-analysis of the deposited data

How the results depend on the processing

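For the Hox genes the sign of the median and of the summed ratio was kept in each comparison wherever they were computed. Counts of calls were not kept. Both were computed with RLE scaling, with no composition scaling and with each library left out. The median was also computed with either change of filter and with a replicate block, and the summed ratio with counts divided by length. Neither was computed with DESeq2, transcripts as features, only the 4 libraries compared or halved counts. DESeq2 called 567, 379 and 695 symbols for nkx2.2a over olig2, for nkx2.2a over dbx1b, and for olig2 over dbx1b. Of these, 9, 10 and 1 were Hox genes. With no filter on low counts edgeR called 233, 238 and 292 symbols, with 2, 3 and 1 Hox genes. In nkx2.2a over dbx1b the count over all symbols was 0 with no composition scaling, 2 with only the 4 libraries compared and 0 with transcripts as features. In olig2 over dbx1b it was 2 with counts halved to fragments, an alternative chosen after seeing the data. Deviations of libraries with the same replicate number were nearly uncorrelated between sorts (0.023, -0.0037 and 0.0073). These values do not show whether such libraries were prepared together. In a fit with a replicate block, 0, 1 and 3 symbols and 0 Hox genes were called, and the Hox medians were -1.46, -1.89 and -0.50. The cause of these shifts was not tested.

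With each library left out in turn, 0 to 6, 0 to 65 and 0 to 7 symbols were called in the same comparisons. Called Hox genes numbered 0, 0 to 1 (hoxa9a without olig2 library 2) and 0. The Hox medians ran from -1.99 to -1.06, -2.51 to -1.34 and -0.69 to -0.37, and the log2 ratios of summed Hox CPM from -1.62 to -0.99, -1.92 to -1.32 and -0.41 to -0.21. Of 53 single-gene folds, 25 moved by over 1.5 times without some library. In olig2 over dbx1b, 3 changed sign, running from -1.05 to 0.059 for hoxa9a (0.059 without dbx1b library 1), from -0.13 to 0.14 for hoxb1b and from -0.23 to 0.18 for hoxc6b. hoxc6b there was also 0.026 with RLE scaling and 0.026 with DESeq2. Genes of few fragments, above all in groups 12 and 13, were limited by depth.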

Other observations

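Genes next to the Hox clusters were compared with the Hox genes. In the RefSeq order of GRCz12tu, 30 genes that are not Hox genes flank the 7 clusters or lie within them, and 29 were tested. Their median log2 fold change was -0.027 for nkx2.2a over olig2, -0.52 for nkx2.2a over dbx1b and -0.57 for olig2 over dbx1b, where the Hox genes had -1.34, -1.66 and -0.54. Of the 29, 15, 20 and 20 were negative (51.7%, 69% and 69%, beside 48.3%, 50.2% and 51.8% of all tested symbols), and edgeR called 0 in each comparison at adjusted p under 0.05. Unadjusted p was under 0.05 for 1 lower and 2 higher in nkx2.2a over olig2 (3.45% and 6.9%, beside 2.62% and 6.12%), for 2 lower and 0 higher in nkx2.2a over dbx1b (6.9% and 0%, beside 2.67% and 3.61%), and for 4 lower and 1 higher in olig2 over dbx1b (13.8% and 3.45%, beside 5.83% and 3.70%). The 4 lower in olig2 over dbx1b were eve1, evx1, evx2 and rarga. All were also in the list of regulators, cofactors and even-skipped genes above, so they are not separate observations. Of the neighbours, DESeq2 called 1 higher, 1 lower and 2 lower, beside 2.55%, 0.887% and 2.35% of all symbols with an adjusted p in those directions. Whether neighbours and Hox genes differ was not tested.

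The neighbour with the widest difference in olig2 over dbx1b was eve1, an even-skipped homeobox gene beside hoxba that is expressed in the zebrafish tailbud, named after its values were seen. It was 1.58 and 0 CPM in nkx2.2a cells, 0.304 and 0 CPM in olig2 cells and 28.5 and 77.1 CPM in dbx1b cells, with the 2 highest libraries both in dbx1b. Against the floor of 3 fragments per library, the nkx2.2a and olig2 libraries at 0 were below 0.907 and 0.711 CPM. Next to hoxca, the retinoic acid receptor gene rarga was 52.9 and 86.8 CPM in nkx2.2a cells, 22.5 and 14.2 CPM in olig2 cells and 81.0 and 118 CPM in dbx1b cells, lowest in olig2 cells, as hoxa2b was; it too was named after its values were seen.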
